A study of Homo sapiens with 4 samples.

Results

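The genes for the subunits of voltage-gated calcium and sodium channels were examined in cardiomyocytes of 2 origins. They were chosen by symbol, as the CACNA1, CACNA2D, CACNB and CACNG genes and the SCN genes ending in A or B, and 38 such genes among the 23615 symbols of the gene table are described. RNA-seq of poly-A RNA was made from unsorted cultures of RUES2, a human embryonic stem cell line, on day 14 of differentiation, with 2 biological replicates in each of 2 groups. Both groups were induced in monolayer with high activin A and low BMP4, after a pretreatment with the GSK3 inhibitor CHIR that is described for the protocol. In the group called ECsXAV, VEGF was given on day 2 to derive anterior hemogenic endothelial cells, which were then moved to the cardiac lineage with 2 µM XAV, a tankyrase inhibitor that blocks Wnt/β-catenin signaling. In the group called CPC, cardiomyocytes came from cardiac progenitor cells of the same induction, and the labels do not give an XAV dose for them. The study's methods describe XAV in the standard cardiac protocol too, in only some of the experiments, so whether the CPC cultures received it is not known here. All libraries are from 1 cell line, and sample names of the groups start differently, so experiment and origin cannot be told apart.

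A voltage-gated calcium channel has a large pore-forming α1 subunit, an intracellular β subunit and an extracellular α2δ subunit, and the skeletal muscle channel also carries a γ subunit. In heart muscle, calcium entry through L-type (Cav1) channels triggers release from the sarcoplasmic reticulum, and T-type (Cav3) channels, which open at more negative voltages, are abundant in the fetal heart and in pacemaker tissue. A voltage-gated sodium channel has a pore-forming α subunit with associated β subunits and carries the fast inward current that starts the action potential of working myocardium and of nerve and skeletal muscle.

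The start regions of 3 calcium channel genes are shown because their libraries did not overlap between the groups, CACNA1C in one direction and CACNA1D and CACNG6 in the other. They were picked with these values known. The lack of overlap does not set them apart, as 49.8% of all genes tested met it. Among the channel genes tested, CACNA1G, CACNA1H, CACNA2D2 and CACNB1 met it too. Each is the 250 bases before a gene start in the RefSeq promoter table (GRCh38.p14), 5′ to 3′ on the plus strand. Each was found once, without a mismatch, in GRCh37, the build of hg19 that the files use. The CACNA1C sequence lies at chr12:2161903-2162152, inside the annotated gene (GENCODE release 44 lifted to GRCh37) and in none of its exons. The CACNA1D sequence lies at chr3:53528388-53528637, also inside its gene and in none of its exons. The CACNG6 sequence lies at chr19:54494641-54494890 and ends at the base before the annotated gene. Capitals mark every match to the GC box, the letters GGGCGG or their reverse complement, which is a motif bound by SP1.
CACNA1C: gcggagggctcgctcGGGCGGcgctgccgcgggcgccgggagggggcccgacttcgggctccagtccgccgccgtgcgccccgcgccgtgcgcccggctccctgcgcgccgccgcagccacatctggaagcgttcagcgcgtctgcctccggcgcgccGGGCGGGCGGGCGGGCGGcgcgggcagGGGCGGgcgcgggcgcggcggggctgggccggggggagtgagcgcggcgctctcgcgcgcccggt
CACNA1D: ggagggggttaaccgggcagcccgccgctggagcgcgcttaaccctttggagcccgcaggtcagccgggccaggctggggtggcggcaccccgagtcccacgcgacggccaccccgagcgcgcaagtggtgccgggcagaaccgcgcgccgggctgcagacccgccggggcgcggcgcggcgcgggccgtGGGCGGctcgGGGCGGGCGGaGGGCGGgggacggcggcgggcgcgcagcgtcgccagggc
CACNG6: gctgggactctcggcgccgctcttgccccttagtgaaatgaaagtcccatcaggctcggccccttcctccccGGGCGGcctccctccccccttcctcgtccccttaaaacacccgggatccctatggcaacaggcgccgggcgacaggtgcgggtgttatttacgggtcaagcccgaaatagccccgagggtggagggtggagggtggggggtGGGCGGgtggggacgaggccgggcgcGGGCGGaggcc

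The 3 sequences held 6, 4 and 3 GC box matches, some of which overlap in the first 2. The table holds 40 such promoters for 26 of the 38 genes, with a median GC content of 63.2% against 58.0% over all 35116 promoters. A GC box was found in 21 of the 40 promoters, beside 42.6% of all promoters. The letters of a GATA site (GATAA) were found in 4 (20.4% of all), of an NKX2-5 site (AAGTG) in 14 (37.6%), of a TBX5 site (GGTGTG) in 4 (14.2%) and of a MEF2 site (CTA and TAG around 4 free bases) in 0 (2.36%). An E-box (CANNTG) was found in 25 (61.8%) and a TATA box (TATAAA) in 2 (10.7%). Both strands were searched, promoters of 1 gene can overlap, and a match to so few letters is only a description of the sequence.

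Expression was deposited as FPKM, fragments scaled to the length of the exons and to the size of the library, which can be set side by side between genes. Of the 38 genes, 10 had a mean of at least 1 FPKM over the 4 libraries and were tested, and 28 were below. At least 1 FPKM in every library was reached by 9 genes. The highest means were those of CACNB1 (18.4 FPKM), CACNB2 (16.1 FPKM), CACNA1H (14.6 FPKM), CACNG6 (13.8 FPKM) and CACNA1C (9.67 FPKM). Fold changes are differences of log2(FPKM + 1) and were taken as CPC minus ECsXAV, so that positive values mark genes higher in CPC. A gene was called when limma's adjusted p was under 0.05 and the fold over 2. Of the 10 genes, 0 were called by limma, beside 2.15% of the 12398 genes tested (1.44% called higher in ECsXAV and 0.71% higher in CPC). An unadjusted p under 0.05 was reached by 6 of the 10, against 18.2% of all genes tested. The median log2 fold change of the 10 was -0.056, and that of all genes was -0.0045. In bulk libraries, fewer cells of a type and less RNA per cell cannot be told apart.

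**Figure D1:**
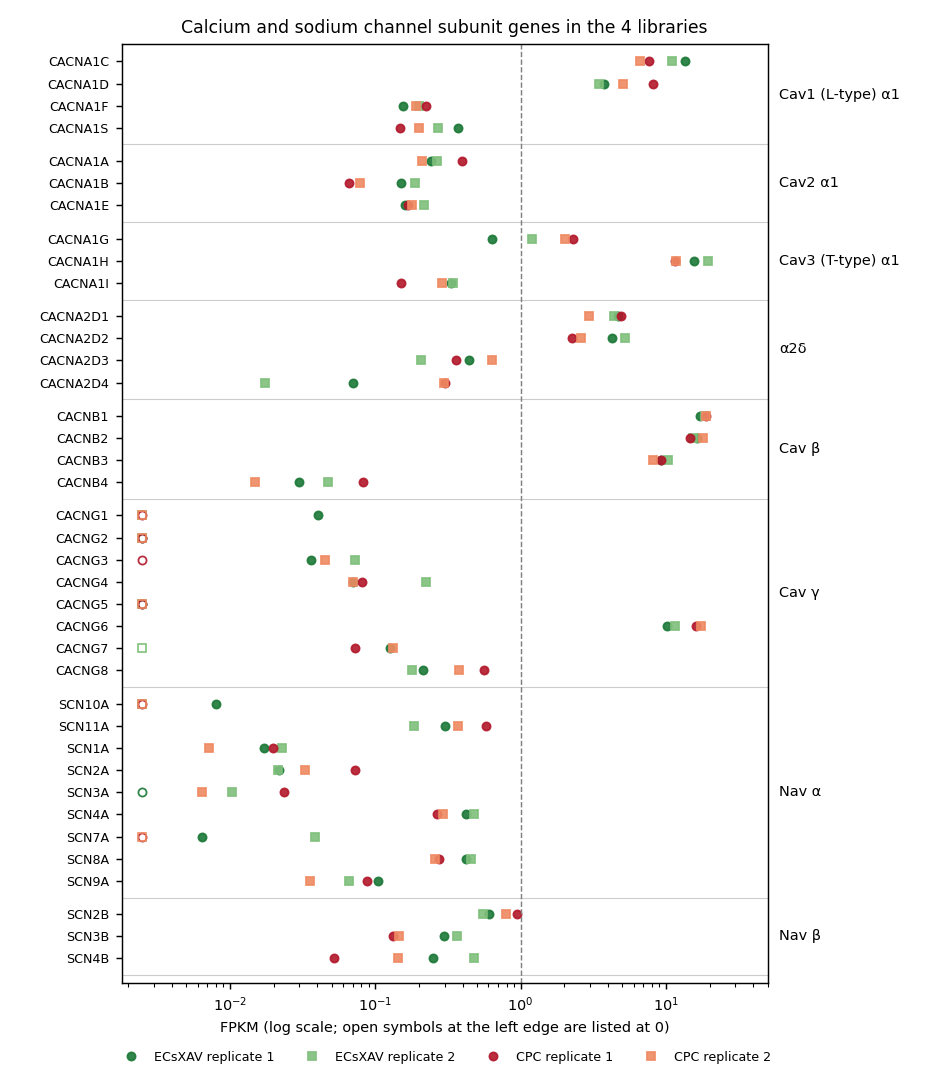
FPKM of the 38 channel subunit genes in the 4 libraries, on a log axis, with genes grouped by subunit family. Circles are replicate 1 and squares replicate 2, in green for ECsXAV and red for CPC, open symbols at the left edge are values listed at 0, and the dashed line is 1 FPKM. The CACNA1C values of ECsXAV, 13.4 and 10.97 FPKM, stand to the right of the CPC values, 7.66 and 6.62 FPKM, and the CACNG6 values of ECsXAV, 10.2 and 11.6 FPKM, to the left of those of CPC, 16.2 and 17.3 FPKM.

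Among the L-type pore subunits, CACNA1C (Cav1.2, the main L-type channel of ventricular muscle) had 13.4 and 10.97 FPKM in ECsXAV and 7.66 and 6.62 FPKM in CPC, with replicate 1 given first here and in what follows. CACNA1D (Cav1.3, the L-type channel of pacemaker and atrial cells) had 3.75 and 3.46 FPKM in ECsXAV and 8.17 and 5.09 FPKM in CPC. The groups did not overlap for either gene, as for 49.8% of all genes tested, and the order of the groups was opposite. The log2 fold change was -0.69 for CACNA1C (standard error 0.146, limma's adjusted p = 0.0929) and 0.70 for CACNA1D (standard error 0.221, limma's adjusted p = 0.195), and neither was called. Their 95% intervals, -1.07 to -0.31 and 0.13 to 1.27, reach past a 2-fold change. The log2 fold change of CACNA1D was 0.40 without CPC replicate 1. In CPC replicate 1, CACNA1D was above CACNA1C, and in the other 3 libraries it was below. CACNA1S (Cav1.1, the skeletal muscle voltage sensor) had 0.371 and 0.272 FPKM in ECsXAV and 0.148 and 0.199 FPKM in CPC. CACNA1F (Cav1.4 of the retina) had 0.155 to 0.223 FPKM over all libraries with overlapping groups. CACNA1C spans chromosome 12 from 2079938 to 2807116 and CACNA1D chromosome 3 from 53362990 to 53847760 (GRCh37).

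Among the T-type pore subunits, CACNA1H (Cav3.2) was the most abundant of all 10 α1 genes on the means, with 15.5 and 19.6 FPKM in ECsXAV and 11.5 and 11.7 FPKM in CPC. CACNA1G (Cav3.1) had 0.639 and 1.19 FPKM in ECsXAV and 2.29 and 2.02 FPKM in CPC. The groups of each gene did not overlap, and as with the L-type pair the order of the groups was opposite. Either order was common over all genes tested, 25.4% without overlap and higher in ECsXAV and 24.4% higher in CPC. The log2 fold change was -0.54 for CACNA1H (95% interval -0.92 to -0.17, limma's adjusted p = 0.143) and 0.74 for CACNA1G (0.23 to 1.24, limma's adjusted p = 0.145), and neither was called. The added 1 FPKM shrinks the value of CACNA1G, whose ratio of means was 2.36 and whose log2 fold change was 1.21 with 0.1 FPKM added in place of 1 (adjusted p = 0.169 from limma). CACNA1I (Cav3.3) had 0.331 and 0.344 FPKM in ECsXAV and 0.150 and 0.286 FPKM in CPC. The neuronal Cav2 genes CACNA1A, CACNA1B and CACNA1E had 0.0664 to 0.395 FPKM, and of these CACNA1B was higher in both ECsXAV libraries.

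**Figure D2:**
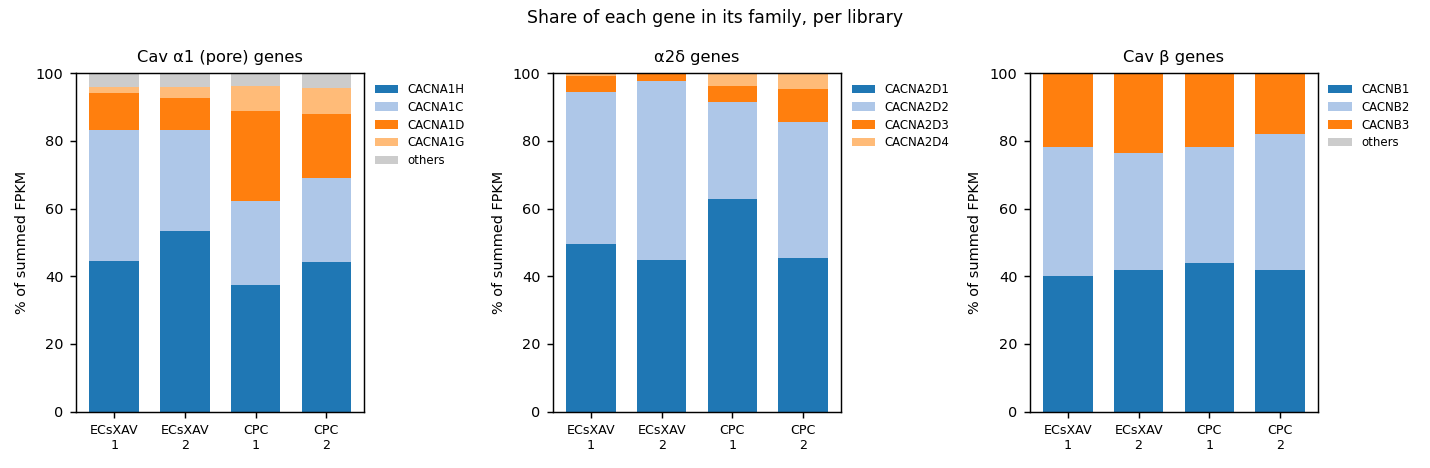
Share in percent of each gene in the summed FPKM of its family, as stacked bars for the 4 libraries, with 1 panel each for calcium channel α1, α2δ and β genes. CACNA1D takes 26.5% and 19.1% of the α1 sum in CPC against 10.8% and 9.43% in ECsXAV, CACNA2D2 takes 28.8% and 40.1% of the α2δ sum in CPC against 45.0% and 53.0% in ECsXAV, while CACNB1 takes 40.1% to 43.9% of the β sum in all libraries.

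L-type (Cav1) genes made up 51.0% and 40.6% of the summed α1 FPKM in ECsXAV and 52.6% and 45.5% in CPC, with overlapping groups. In both groups, the Cav1 share was above the T-type (Cav3) share in replicate 1 and below it in replicate 2. Cav3 genes made up 47.4% and 57.6% of the summed α1 FPKM in ECsXAV and 45.4% and 52.8% in CPC, with overlapping groups (exact permutation p of 0.667). Within the sum, CACNA1C took 38.7% and 29.9% in ECsXAV and 24.9% and 24.9% in CPC, a difference of -9.41 percentage points that was -5.02 without ECsXAV replicate 1. CACNA1D took 10.1% ± 0.97 in ECsXAV and 22.8% ± 5.2 in CPC, and CACNA1G 2.54% ± 0.99 and 7.51% ± 0.13 (SD, n = 2 each). For each of these 3 genes the exact permutation p was 0.333, the smallest possible.

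The β subunits, which carry the α1 subunit to the membrane, had similar levels in the 4 libraries. CACNB1 (the skeletal muscle β subunit) had 17.2 and 18.6 FPKM in ECsXAV and 18.9 and 18.9 FPKM in CPC. CACNB2 (the main cardiac β subunit) had 16.4 and 15.3 FPKM in ECsXAV and 14.7 and 18.1 FPKM in CPC. CACNB3 had 9.26 and 10.3 FPKM in ECsXAV and 9.31 and 8.14 FPKM in CPC. CACNB1 was slightly higher in both CPC libraries, and the other 2 overlapped. The log2 fold changes were 0.07, 0.04 and -0.15, and the widest of their 95% intervals, that of CACNB2, ran from -0.32 to 0.40, so a 2-fold change lies outside all 3. The summed β FPKM was 42.9 and 44.3 in ECsXAV and 43.0 and 45.2 in CPC. CACNB4, a neuronal β subunit, had 0.0149 to 0.0823 FPKM.

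The α2δ subunits raise the number of channels at the membrane, and CACNA2D1 is the usual cardiac member. CACNA2D1 had 4.68 and 4.38 FPKM in ECsXAV and 4.91 and 2.94 FPKM in CPC, and its groups overlapped (log2 fold change -0.20, 95% interval -0.77 to 0.38, limma's adjusted p = 0.706). CACNA2D2 had 4.24 and 5.20 FPKM in ECsXAV and 2.26 and 2.59 FPKM in CPC, without overlap. Its log2 fold change was -0.74 (standard error 0.148, 95% interval -1.12 to -0.35, limma's adjusted p = 0.0843), which was not called. CACNA2D3 had 0.208 to 0.636 FPKM with overlapping groups. CACNA2D4 had 0.0703 and 0.0175 FPKM in ECsXAV and 0.304 and 0.297 FPKM in CPC. It was higher in both CPC libraries, with a ratio of means of 6.84, the largest ratio of any of the 38 genes above 0 in every library. As ratios of whole reads, the 4 libraries held CACNA2D4 at 8, 1, 30 and 27, in the order given. It lies on the minus strand of chromosome 12, 52105 bases from CACNA1C, whose groups had the opposite order.

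Of the 8 γ genes, CACNG6 made up 95.5% to 96.5% of the summed FPKM in every library. CACNG6, a relative of the skeletal muscle γ subunit, had 10.2 and 11.6 FPKM in ECsXAV and 16.2 and 17.3 FPKM in CPC. Both CPC libraries were above both ECsXAV libraries, with a log2 fold change of 0.58 (standard error 0.118, 95% interval 0.27 to 0.88, limma's adjusted p = 0.0862), which was not called. CACNG8, whose gene ends 1421 bases before CACNG6 on chromosome 19, had 0.211 and 0.179 FPKM in ECsXAV and 0.560 and 0.378 FPKM in CPC, again higher in each CPC library. CACNG7, the third gene of the cluster, 18986 bases from CACNG8, had 0 to 0.132 FPKM and was listed at 0 in ECsXAV replicate 2. CACNG2, CACNG3, CACNG4, CACNG7 and CACNG8 encode AMPA receptor regulatory proteins of neurons. CACNG3 and CACNG4 had 0 to 0.223 FPKM, CACNG1 (the skeletal muscle γ subunit) was above 0 only in ECsXAV replicate 1 (0.0405 FPKM), and CACNG2 and CACNG5 were listed at 0 in all 4 libraries.

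Each of the 9 sodium channel α subunit genes described was below 1 FPKM in every library, so none was tested and their values are a description. SCN4A (Nav1.4, the skeletal muscle channel) had 0.422 and 0.474 FPKM in ECsXAV and 0.267 and 0.291 FPKM in CPC. SCN8A (Nav1.6, chiefly a neuronal channel) had 0.419 and 0.458 FPKM in ECsXAV and 0.273 and 0.257 FPKM in CPC. Both were lower in each CPC library than in either ECsXAV library. SCN11A (Nav1.9 of sensory neurons) had the opposite order, with 0.301 and 0.186 FPKM in ECsXAV and 0.578 and 0.369 FPKM in CPC. SCN10A (Nav1.8, also of sensory neurons), 29477 bases from SCN11A on chromosome 3, was above 0 only in ECsXAV replicate 1 (0.00797 FPKM). SCN1A, SCN2A, SCN3A and SCN9A, which encode channels of neurons, and SCN7A spanned 0 to 0.104 FPKM. Of these, SCN2A was higher in both CPC libraries and SCN7A was listed at 0 in both of them. As ratios of whole reads SCN7A was at 1, 3, 0 and 0 in ECsXAV replicates 1 and 2 and CPC replicates 1 and 2. The number of reads itself is not known, and values this near 0 are uncertain. SCN2A and SCN3A overlap on opposite strands of chromosome 2, and strand use is not stated for the FPKM, so reads in the overlap cannot be assigned with certainty.

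The sodium channel β subunits modulate gating and tether the channel to the membrane and neighbouring cells, and the 3 genes described were also below 1 FPKM in every library. SCN4B had 0.252 and 0.477 FPKM in ECsXAV and 0.0523 and 0.142 FPKM in CPC, and SCN3B had 0.298 and 0.363 FPKM in ECsXAV and 0.133 and 0.145 FPKM in CPC. SCN2B, which lies 9917 bases from SCN4B on chromosome 11, had 0.603 and 0.554 FPKM in ECsXAV and 0.948 and 0.792 FPKM in CPC. SCN3B and SCN4B were therefore higher in each ECsXAV library and SCN2B in each CPC library. The ratio of the group means was 3.74 for SCN4B, 2.37 for SCN3B and 1.504 for SCN2B.

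**Figure D3:**
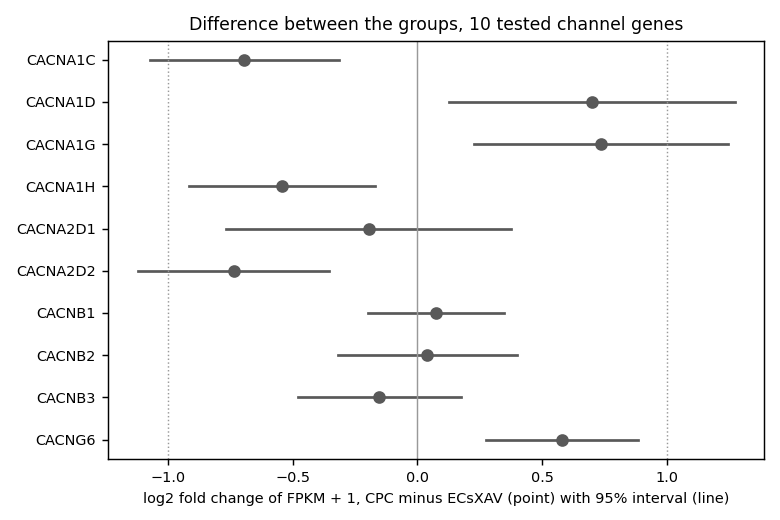
Log2 fold change of FPKM + 1, CPC minus ECsXAV, for the 10 tested genes, as points with 95% intervals from limma, with dotted lines at a 2-fold change. No interval lies wholly beyond a 2-fold change in these 10 genes, and 6 of the 10 lie within it.

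Over these families, 3 of the 10 tested genes were higher in both ECsXAV libraries (CACNA1C, CACNA1H and CACNA2D2) and 4 in both CPC libraries (CACNA1D, CACNA1G, CACNB1 and CACNG6). Such a lack of overlap was met by 49.8% of all genes tested, 25.4% higher in ECsXAV and 24.4% higher in CPC. Of the 28 genes below 1 FPKM, 26 were above 0 in at least 1 library, and 8 of these were higher in both ECsXAV libraries and 5 in both CPC libraries, where 23.1% and 17.1% of all 6374 such genes were, 40.3% together. The 95% interval lay within a 2-fold change in either direction for 6 of the 10 tested genes. The remaining 4, CACNA1C, CACNA1D, CACNA1G and CACNA2D2, have intervals that reach past it. When short RNA genes were left out of the fit, 4 of the 10 had an adjusted p under 0.05 from limma at any fold, beside 8.01% of all 12086 genes. These were CACNA1C (0.0269), CACNA1G (0.0438), CACNA2D2 (0.0242) and CACNG6 (0.0328), and of the 10 genes 0 were past 2-fold as well on the log2(FPKM + 1) scale, beside 2.8% of all genes.

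The deposited transcript table divides the FPKM of a gene among its RefSeq transcripts, and 9 of the 10 tested genes had more than 1. For CACNG6, NM_145815 made up 31.8% and 25.2% of the gene's FPKM in ECsXAV and 59.9% and 61.7% in CPC, and NM_145814 made up 68.2% and 74.1% in ECsXAV and 30.8% and 38.3% in CPC. By these estimates the more abundant transcript was a different one in the 2 groups, with 2 libraries in each. In FPKM, NM_145815 had 3.24 and 2.92 in ECsXAV and 9.67 and 10.7 in CPC, while NM_145814 had 6.95 and 8.58 in ECsXAV and 4.97 and 6.64 in CPC. For CACNB1, NM_000723 made up 20.8% and 19.2% in ECsXAV and 28.9% and 27.8% in CPC, a smaller difference with close replicates. For CACNA1D, NM_001128839 made up 0.063% and 20.8% in ECsXAV and 54.3% and 32.9% in CPC. For CACNA1H, NM_001005407 made up 57.2% and 83.2% in ECsXAV and 50.1% and 39.0% in CPC. The replicates of these last 2 genes lay far apart even though the groups did not overlap.

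Of 24 channel transcripts with a mean share of at least 5%, 10 did not overlap between the groups, beside 36.5% of the 11877 such transcripts of all genes. The shares are estimates from short reads and can be unstable. CACNA1G has 33 listed transcripts, and a different one was the largest in each library. These were NR_046054 (92.6%) and NM_198376 (65.0%) in ECsXAV and NM_198382 (87.9%) and NR_046057 (85.9%) in CPC. CACNA1C has 23 listed transcripts, and NM_000719 took 0.187% and 13.6% in ECsXAV and 6.74% and 45.7% in CPC. CACNA2D2 has 3, and NM_001005505 took 29.5% and 2.54% in ECsXAV and 0.125% and 31.4% in CPC. For both transcripts the CPC replicates lay further apart than the means of the groups.

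**Figure D4:**
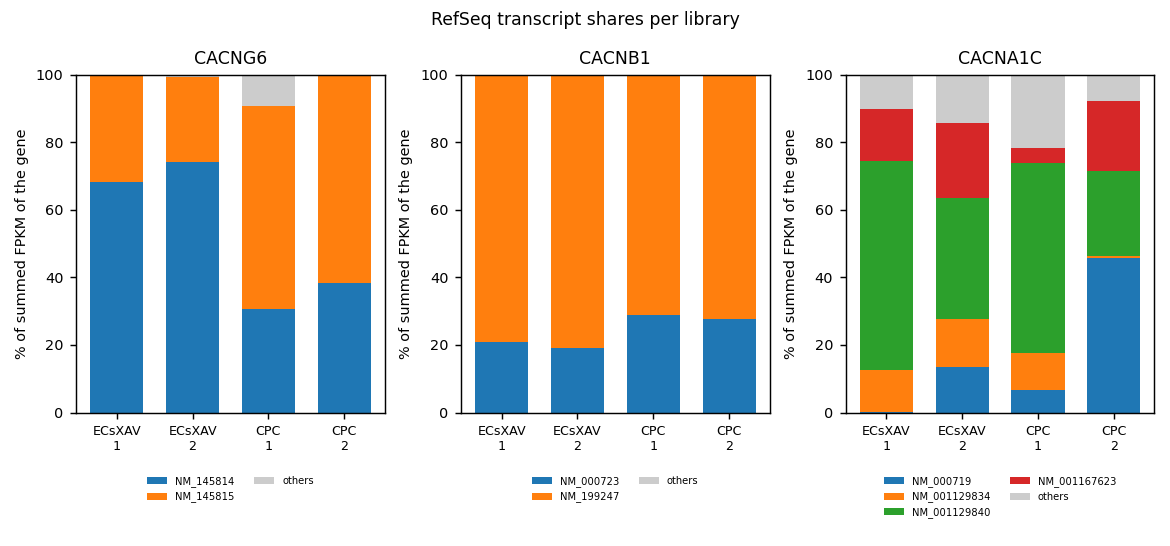
Share in percent of each RefSeq transcript in the summed FPKM of its gene, as stacked bars for the 4 libraries, for CACNG6, CACNB1 and CACNA1C. NM_145815 of CACNG6 takes 31.8% and 25.2% in ECsXAV and 59.9% and 61.7% in CPC, while NM_000719 of CACNA1C runs from 0.187% to 45.7% with no order by group.

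Lists of 73 genes that act with these channels were read from the same test, and 5 of the 56 tested were called, beside 2.15% of all genes. Among 30 partners and regulators of calcium channels, 26 were tested, 1 was called higher in ECsXAV and 2 in CPC. Their median log2 fold change was 0.048, beside -0.0045 over all genes tested. STAC3, an adaptor that couples the skeletal muscle channel, had 1.91 and 2.19 FPKM in ECsXAV and 23.6 and 17.7 FPKM in CPC. Each CPC library was far above both ECsXAV libraries, and STAC3 rose by 2.82 on the log2 scale (standard error 0.169, limma's adjusted p = 0.0081). Its call was lost without CPC replicate 1 (adjusted p = 0.0703 from limma, with 1 CPC library left). Its relative STAC, at 7.76 and 7.80 FPKM in ECsXAV and 8.57 and 11.4 FPKM in CPC, was not called, and STAC2, below 1 FPKM in every library, was not tested. BIN1, which shapes the T-tubule membrane and brings L-type channels to it, had 7.37 and 7.17 FPKM in ECsXAV and 15.9 and 15.6 FPKM in CPC (log2 fold change 1.02, limma's adjusted p = 0.0229). AHNAK, a large scaffold protein that binds β subunits, had 38.2 and 36.4 FPKM in ECsXAV and 15.3 and 12.6 FPKM in CPC (log2 fold change -1.36, limma's adjusted p = 0.0208). Neither gene had overlapping groups, and each lost its call when any 1 library was left out, with adjusted p from limma of 0.103 to 0.176 for BIN1 and 0.0851 to 0.126 for AHNAK. The most abundant genes of the list, RRAD, a small GTPase that inhibits calcium channels, and PRKAR1A, a regulatory subunit of protein kinase A, had 101 to 223 and 119 to 138 FPKM and were not called.

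Among 20 partners of sodium channels, 17 were tested and 1 was called, beside 2.15% of all genes tested. The median log2 fold change of the list was -0.109, beside -0.0045 over all genes tested. FGF12, an intracellular FGF homologous factor that binds the tail of sodium channel α subunits, had 4.83 and 3.21 FPKM in ECsXAV and 0.0999 and 0.0981 FPKM in CPC. FGF12 was higher in both ECsXAV libraries, with a log2 fold change of -2.17 (standard error 0.206, limma's adjusted p = 0.0199). Its group means, 4.02 and 0.099 FPKM, had a ratio of 40.6, and the log2 fold change was -4.34 with 0.1 FPKM added in place of 1. The call was lost without CPC replicate 1 (0.133) or CPC replicate 2 (0.121). Its relatives FGF11, at 39.8 to 61.3 FPKM, and FGF13, at 46.8 to 52.2 FPKM, were far more abundant in all libraries and were not called, and FGF14 stayed below 1 FPKM and was not tested. PKP2, a desmosomal protein, had 96.8 to 114 FPKM and was not called.

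Of 12 genes of the junction between surface membrane and sarcoplasmic reticulum, 9 were tested and 1 was called, beside 2.15% of all genes tested. The median log2 fold change of the list was 0.214, beside -0.0045 over all genes tested. RYR1, the skeletal muscle release channel, had 1.08 and 1.07 FPKM in ECsXAV and 4.05 and 3.04 FPKM in CPC (log2 fold change 1.12, limma's adjusted p = 0.0451). Its call was lost without any 1 of the libraries, with adjusted p from limma of 0.0919 to 0.201. RYR2, the cardiac release channel, was more abundant, with 38.2 and 33.7 FPKM in ECsXAV and 36.1 and 24.5 FPKM in CPC, and was not called (log2 fold change -0.26, 95% interval -0.80 to 0.28). RYR3, a release channel of brain and other tissues, had 0.0529 to 0.295 FPKM and was not tested. ASPH, whose locus also encodes junctin, and TRDN, which encodes triadin, had 89.9 to 136 and 44.04 to 74.7 FPKM and were not called. Of 11 genes for other cation channels or for accessory proteins of the sodium leak channel NALCN (UNC79, UNC80 and FAM155A), 4 were tested and 0 were called by limma, 1 of them, HVCN1, with an unadjusted p under 0.05 from limma. Their median log2 fold change was -0.027. The lysosomal channel genes TPCN1 and TPCN2 led the list with 7.23 to 9.38 and 1.79 to 2.73 FPKM.

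**Figure D5:**
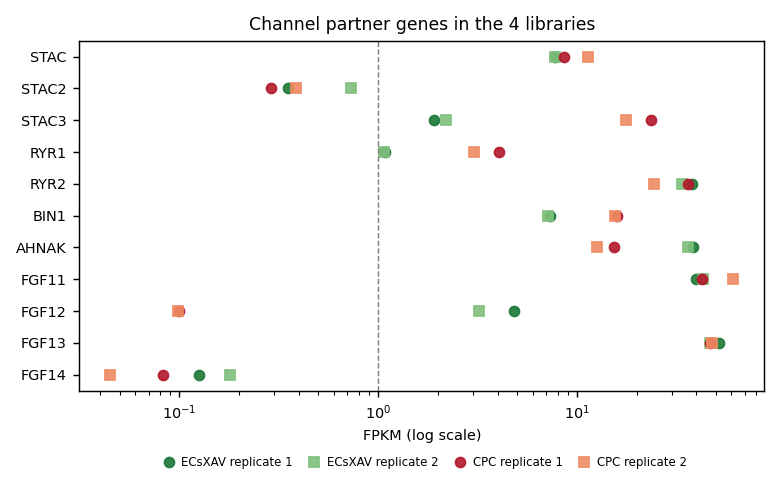
FPKM of 11 genes whose products bind or couple to the channels, on a log axis, in the 4 libraries, with symbols as in the plot of channel genes. STAC3, RYR1 and BIN1 stand higher in both CPC libraries, FGF12 and AHNAK stand higher in both ECsXAV libraries, and STAC2 and FGF14 stay left of 1 FPKM.

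Markers of the cell types that such cultures can hold were summed in each library. The 9 cardiomyocyte markers summed to 14100 to 14610 FPKM in ECsXAV and 13110 to 13760 FPKM in CPC. MYL7 alone had 8786 and 8535 FPKM in ECsXAV and 6701 and 7142 FPKM in CPC, most of each sum. TNNT2 had the opposite order, with 2453 and 2309 FPKM in ECsXAV and 2696 and 2988 FPKM in CPC. Of the 9, 4 were higher in both ECsXAV libraries and 2 in both CPC libraries, beside 25.4% and 24.4% of all genes tested. In each direction 1 of the 9 tested was called, beside 1.44% of all genes higher in ECsXAV and 0.71% higher in CPC. The 9 smooth muscle and stroma markers summed to 389 and 395 FPKM in ECsXAV and 178 and 199 FPKM in CPC. Of the 6 tested, 4 were called higher in ECsXAV, beside 1.44% of all genes, the direction of FGF12 and AHNAK. Of the 9, 7 were higher in both ECsXAV libraries and 1, MYH11, in both CPC libraries, beside 25.4% and 24.4% of all genes tested. MYH11 had 0.0844 and 0.154 FPKM in ECsXAV and 0.351 and 0.433 FPKM in CPC. ACTA2 had 80.5 and 57.5 FPKM in ECsXAV and 74.2 and 78.5 FPKM in CPC, with overlapping groups. The 8 hepatic and endoderm markers summed to 46.4 and 38.9 FPKM in ECsXAV and 19.3 and 21.5 FPKM in CPC. Of the 5 tested, 3 were called higher in ECsXAV, beside 1.44% of all genes. The 10 neuronal markers summed to 13.6 to 14.2 FPKM in ECsXAV and 9.47 to 10.8 FPKM in CPC. Of the 4 tested, 1 was called higher in ECsXAV, beside 1.44% of all genes. Of the 10, 6 were higher in both ECsXAV libraries and 1, SNAP25, in both CPC libraries. For all genes tested these shares were 25.4% and 24.4%, and for genes above 0 with a mean under 1 FPKM 23.1% and 17.1%. SNAP25 had 2.59 and 2.24 FPKM in ECsXAV and 4.86 and 4.07 FPKM in CPC. The 9 endothelial markers summed to 11.4 to 14.5 FPKM in all libraries, and 6 of them, PECAM1 and VWF included, were below 1 FPKM in every library, VWF being listed at 0 in both CPC libraries. KDR alone had 7.055 to 10.85 FPKM, most of each sum. Of the 9, 4 were higher in both ECsXAV libraries (CDH5, TEK, CD34 and VWF) and 1, EMCN, in both CPC libraries. Of all genes tested 25.4% and 24.4% were so, and of genes above 0 with a mean under 1 FPKM 23.1% and 17.1%. Of the 3 endothelial markers tested, 0 were called by limma and 0 had an unadjusted p under 0.05. The 11 skeletal muscle markers summed to 330 to 467 FPKM, nearly all of it from CKM and ACTA1 which heart muscle also expresses, while MYF5 and MYF6 were listed at 0 in all libraries. Of the 3 skeletal muscle markers tested, 0 were called by limma and 1 had an unadjusted p under 0.05. Among these 3, TNNT3 had 3.76 and 3.89 FPKM in ECsXAV and 0.988 and 1.92 FPKM in CPC, and the groups of CKM and ACTA1 overlapped. The 6 neural crest and glia markers summed to 11.6 to 13.8 FPKM, nearly all of it from ERBB3 (11.05 to 13.01 FPKM). ERBB3 was the 1 tested and was not called. The part of these cells in the differences between the groups was not tested. The step between the low FPKM values of a library gave a relative depth of 50.1% to 86.9% for the other 3 libraries when ECsXAV replicate 1 is set to 100%, with ECsXAV replicate 2 the shallowest.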

How the data were processed

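Poly-A RNA of 4 libraries was sequenced with Illumina TruSeq. The authors deposited FPKM per gene and per RefSeq transcript, computed per library with Cufflinks 2.1.1 and UCSC gene annotations on hg19. The submitters' processing notes name TopHat 1.3.3. Scaling between libraries, strand use and the treatment of multiply aligned reads are not given for the FPKM in the sources used here. Read counts were not used here, so total depth is unknown and no counting interval is given.

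Groups and replicate numbers came from the labels, and a symbol with several loci kept its row of highest mean FPKM. The 12398 genes with a mean of at least 1 FPKM were tested on log2(FPKM + 1) with limma 3.58.1 in R 4.3.3, 2-sided, using an intensity trend, and p-values were adjusted over all of them by Benjamini-Hochberg. The added 1 understates changes of low genes, and an exact permutation test of 2 libraries against 2 cannot go below 0.333. The steps were tested on simulated data. Figures were drawn with matplotlib 3.10.9 and the other values computed with NumPy 2.4.6 and pandas 2.3.3 in Python 3.11.15. Reads were given as ratios where the 4 values of a gene, divided by relative depth, were whole within 0.1. Channel genes of at least 1 FPKM were named with all values, the others by family, and of the lists the called genes, the 2 most abundant, and the STAC and RYR genes. HVCN1, FGF11 and FGF14 were picked after their values were seen. Some genes of the rule (2 of the 40 it finds) and of the lists are not reported here, and counts over them leave these out. Channel genes, lists and tests were chosen with earlier results of these data known. The alternatives are named in the closing section.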

Additional observations from a re-analysis of the deposited data

How the results depend on the processing

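With 2 libraries in each group, every count rests on the variance limma shares across genes, and leaving out a library leaves a group with 1 library that is assumed to vary like the other group. Over all genes, 266 passed the criterion (178 higher in ECsXAV, 88 in CPC), against 20 (8 and 12) without a filter on low FPKM, 152 (93 in ECsXAV) at a mean of at least 5 FPKM, and 50 to 118 (11 to 83 in ECsXAV, 35 to 56 in CPC) with 1 library left out. Of the 10 tested channel subunit genes described, 0 passed by limma (6 with an unadjusted p under 0.05, beside 18.2% of all genes tested). Under each alternative that kept all 4 libraries, 0 passed as well. Without the filter 15 of 36 had limma's unadjusted p under 0.05, and 4 of 7 at a mean of at least 5 FPKM. The share over all genes was not taken in these settings, so these counts have no background. Of the related genes, 5 passed (2 in ECsXAV), against 0 without the filter and 3 (1 in ECsXAV) at a mean of at least 5 FPKM. Fewer than 5 also passed with 1 library left out. With a pseudocount of 0.1, with no trend or without short RNA genes, 6 passed (3 in ECsXAV). Without the filter, 16 of 70 had limma's unadjusted p under 0.05, again with no share over all genes taken.

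FGF12 and RYR1 are below the higher minimum, and otherwise the cause was not tested. A pseudocount of 0.1, median-of-ratios scaling, no trend, summed loci, summed transcripts and omission of short RNA genes changed the call of none of STAC3, AHNAK, BIN1, FGF12 and RYR1, nor did quantile normalization, and no filter ended all 5. No scaling moved the median of all genes by 0.1. With 1 library left out, small differences changed sign: CACNA2D1 ran from -0.49 to 0.10 (the latter without CPC replicate 2) and CACNB2 from -0.10 to 0.18 (negative without replicate 2 of either group, -0.0049 for ECsXAV). The Cav3 share difference ran from -8.49 to 1.66 percentage points (0.289 without CPC replicate 1), that of CACNB2 from -2.18 to 3.71 (-1.04 without ECsXAV replicate 2) and that of CACNA1C from -13.8 to -5.02 with 1 library left out.

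Groups share replicate numbers, but the labels do not say that a number marks a shared culture. Differences between replicates 1 and 2 correlated between the groups by rank with 0.356 over 12398 genes (Pearson's r 0.035), and with 0.376 (r 0.183) over 12086 genes without short RNA genes. With the replicate block, 176 genes passed (117 in ECsXAV) and RYR1 lost its call (adjusted p = 0.070 from limma). With the replicate block and without short RNA genes, 345 passed (239 in ECsXAV), RYR1 was called (0.0024) and 6 of the 10 channel genes had an adjusted p under 0.05 from limma at any fold, beside 13.7% of all genes. These were the 4 found so without the block, CACNA1D (0.0207) and CACNA1H (0.0176).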
